A study of Mus musculus with 18 samples.

Results

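A set of 9 genes that are established transcriptional targets of the glucocorticoid receptor (GR) was followed through isolated mouse quadriceps myofibers: Fkbp5, Zbtb16, Tsc22d3, Ddit4, Klf15, Sgk1, Cebpd, Cebpb and Cdkn1a. The genes were chosen by name, and all 9 were found by their Ensembl identifiers among the 43430 genes of the count table. All 9 passed the filter on low counts, with 13596 genes tested in all. RNA came from 18 C57BL/6 mice (C57BL/6J in the study's methods), with 1 library per mouse and 3 libraries in each of 6 groups (male or female, on vehicle, weekly prednisone or daily prednisone). Treatment began at 10 weeks of age and lasted 4 weeks. Vehicle mice received DMSO in PBS by intraperitoneal injection every day, daily mice received prednisone at 1 mg/kg every day, and weekly mice received prednisone at 1 mg/kg on 1 day of the week and vehicle on the others. The last prednisone injection of the weekly regimen was given 2 days before harvest, so the regimen and the time since the last dose cannot be told apart in any comparison with daily mice.

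GR is a nuclear receptor held in the cytoplasm by heat shock proteins and their co-chaperones. When it binds a glucocorticoid such as prednisolone, the active form of prednisone, it enters the nucleus and binds paired hexamer sites in DNA, from which it raises the transcription of target genes. In skeletal muscle these targets restrain hormone and growth factor signalling, alter amino acid and lipid use, and take part in the wasting that follows long exposure. The listed genes include a feedback inhibitor of GR (Fkbp5), transcription factors (Zbtb16, Klf15, Cebpd, Cebpb), a mediator of anti-inflammatory effects (Tsc22d3, which encodes GILZ), an inhibitor of mTORC1 (Ddit4), a kinase (Sgk1) and a cell cycle inhibitor (Cdkn1a).

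The DNA just upstream of the genes was read to see whether GR's own site lies there, in RefSeq promoter sequences on GRCm38.p6. Windows of 250 bases before the transcription start were found for 7 of the 9 genes. Zbtb16 and Cebpd had no entry. Both strands were searched for the hexamer TGTTCT, for the core of the paired site, ACANNNTGT, and for the full palindrome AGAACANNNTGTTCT, in which the core and 2 hexamers overlap. Sgk1 is shown because it held the only full palindrome among the listed genes, and Fkbp5 because it was called between daily and weekly mice. Cebpb, which passed no test in the main fit, is shown because its daily libraries lay below vehicle in males and above it in females. Capitals mark motif letters, and the spacer bases stay in lower case.
Sgk1, start 5 (chr10:21993640-21993889, + strand): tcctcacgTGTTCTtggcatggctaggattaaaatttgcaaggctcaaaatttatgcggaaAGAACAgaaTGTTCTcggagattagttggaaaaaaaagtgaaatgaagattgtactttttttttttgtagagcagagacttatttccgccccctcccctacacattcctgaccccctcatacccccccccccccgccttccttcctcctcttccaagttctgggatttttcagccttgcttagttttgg
Sgk1, start 2 (chr10:21978422-21978671, + strand): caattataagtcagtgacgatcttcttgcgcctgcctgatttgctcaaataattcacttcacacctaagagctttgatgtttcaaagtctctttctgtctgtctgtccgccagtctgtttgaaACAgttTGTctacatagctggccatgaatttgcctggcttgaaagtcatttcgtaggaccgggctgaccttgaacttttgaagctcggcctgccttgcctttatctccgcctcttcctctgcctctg
Fkbp5 (chr17:28486150-28486399, - strand): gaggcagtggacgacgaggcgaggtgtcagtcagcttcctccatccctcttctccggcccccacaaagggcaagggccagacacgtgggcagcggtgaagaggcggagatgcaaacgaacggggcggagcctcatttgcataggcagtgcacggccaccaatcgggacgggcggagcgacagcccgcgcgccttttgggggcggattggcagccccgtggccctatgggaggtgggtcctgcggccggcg
Cebpb (chr2:167688665-167688914, + strand): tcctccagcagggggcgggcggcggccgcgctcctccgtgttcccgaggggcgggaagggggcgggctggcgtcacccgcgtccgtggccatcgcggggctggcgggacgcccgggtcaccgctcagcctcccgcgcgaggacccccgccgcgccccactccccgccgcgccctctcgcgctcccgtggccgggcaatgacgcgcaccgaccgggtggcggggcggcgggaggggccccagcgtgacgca

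The full palindrome lay at bases -189 to -175 of Sgk1 start 5, counted from the start site. It was present in 3 of 32851 mouse promoter windows of this length (0.00913%). The core alone was present in 5.84% of windows and the hexamer in 16.1%. Sgk1 start 2 held a core at bases -127 to -119. Hexamers outside the palindrome stood in Sgk1 starts 1, 4 and 5 and in Tsc22d3 start 2. The windows of Fkbp5, Ddit4, Klf15, Cebpb and Cdkn1a held none of the 3 motifs. A match or its absence here describes letters in a short window and not binding.

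**Figure D1:**
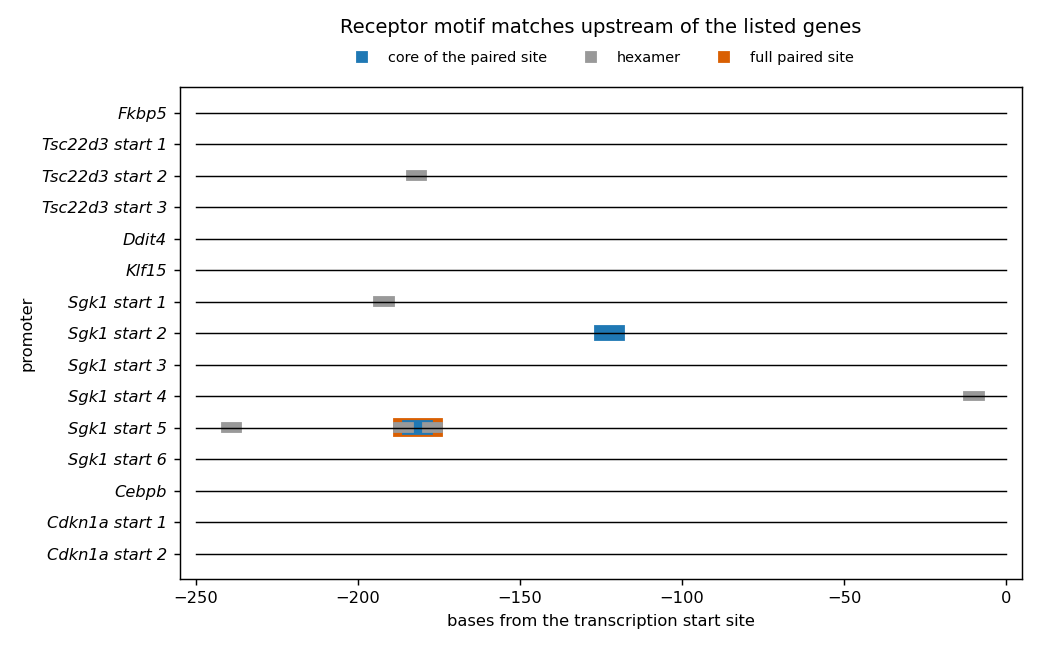
Matches to GR motifs in the 250 bases upstream of each RefSeq start of 7 listed genes. The x axis gives bases from the transcription start site, each line is 1 window, and boxes mark hexamers (grey), cores (blue) and the full palindrome (orange), the last seen only at Sgk1 start 5.

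The libraries held 10506661 to 14686654 counts each, of which 11.7% to 36.4% were mitochondrial. Levels are given as CPM, counts scaled to library size with TMM factors. The listed genes had 237 to 7138 counts in single libraries. All 10 myofibre markers were counted in every library, with summed levels of 132600 to 237200 CPM. Over both sexes, edgeR called 4 of these 10 lower in daily than in vehicle mice and none higher, beside 15% of tested genes. Between daily and weekly mice it called 3 of the 10 higher in daily mice and none lower, beside 8.17% of tested genes. Markers of other cells were present too. Adipocyte markers summed to 353 to 643 CPM in male vehicle libraries, 795 to 1477 in male weekly and 759 to 1878 in male daily ones. In females the ranges were 719 to 817 (vehicle), 959 to 6872 (weekly) and 1214 to 4106 CPM (daily), and 9 of the 10 markers had a count in every library, Lep being at 0 in some. In the fit over both sexes, 8 of 10 adipocyte markers were called higher in daily than in vehicle mice, while between daily and weekly mice none was called by edgeR, DESeq2 or limma-voom and 1 had an unadjusted p under 0.05 in edgeR. Of the red cell markers, 4 of 5 were called lower in daily than in vehicle mice and 4 of 5 lower in daily than in weekly mice. None of the 5 was higher in daily mice in either comparison. Macrophage markers, of which Fcgr1 was at 0 in some library, summed to 87.4 to 109 CPM in weekly females and to 37.8 to 74.3 CPM in all other libraries. Fewer cells of a type and less RNA per cell cannot be told apart in such samples. Female weekly replicate 1 stood apart in immediate early genes, which summed to 458 CPM against 1164 to 6599 CPM elsewhere. That library was the lowest of its group for 7 of the 9 listed genes and male weekly replicate 3 for 8. Male vehicle replicate 2 and female vehicle replicate 3 were each the lowest of their group for 6.

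Across libraries the listed genes differed in level by almost an order of magnitude per kilobase of exon. Tsc22d3 was the highest at 77.2 ± 19.4 CPM per kb (SD, n = 18), followed by Cebpd (72.8 ± 22.2 CPM per kb), Sgk1 (67.1 ± 14.9 CPM per kb) and Ddit4 (41.9 ± 30.2 CPM per kb). Below these stood Cdkn1a at 36.5 ± 14.6, Cebpb at 25.3 ± 9.92, Zbtb16 at 15.6 ± 5.94, Klf15 at 14.5 ± 3.99 and Fkbp5 at 8.62 ± 3.49 CPM per kb. Each gene's SD range overlapped that of its neighbour in this order. Ddit4 was the most variable, with a 9.02-fold span from the lowest library to the highest, and Sgk1 the least, with a 2.42-fold span. Fkbp5 spanned 5.17-fold and Zbtb16 3.68-fold.

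The first question was which targets stood higher under daily than under weekly prednisone, 2 regimens given at the same dose per injection. Zbtb16 and Fkbp5 were called higher in daily than in weekly mice, Fkbp5 near the threshold, and the other 7 genes did not pass the test. Zbtb16 was higher in daily mice by 0.76 ± 0.15 on the log2 scale (SE, edgeR quasi-likelihood test, adjusted p = 0.00923) and Fkbp5 by 1.03 ± 0.30 (adjusted p = 0.0460). These 2 calls of 9 stand beside 8.17% of all tested genes called in the same comparison, 1111 genes. The median difference of the 9 genes was 0.27 (log2), with 8 of 9 above 0, and that of all tested genes was -0.018.

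Fkbp5 encodes FKBP51, a co-chaperone that lowers the affinity of GR for its ligand and so closes a feedback loop. Its gene lies on the minus strand at chr17:28399095-28517524 in the table's coordinates, a span that also holds 4 small annotated genes. In the order of replicate numbers, male daily libraries had 119, 102 and 86.5 CPM and male weekly libraries 78.2, 54.7 and 46.5 CPM. Female daily libraries had 133, 132 and 83.7 CPM against 39.5, 33.1 and 70.8 CPM in female weekly ones. Every daily library was above every weekly library of its sex. Male vehicle libraries, at 80.0, 73.3 and 84.3 CPM, were all below the daily ones and overlapped the weekly ones. Female vehicle libraries, at 121, 105 and 25.8 CPM, overlapped both, and replicate 3 was the lowest of all 18 for Fkbp5. With female vehicle replicate 3 included, Fkbp5 differed from vehicle by 0.42 ± 0.30 in daily mice (95% interval -0.21 to 1.05, adjusted p = 0.378) and by -0.61 ± 0.30 in weekly mice (-1.24 to 0.026, adjusted p = 0.470). Without it these differences were 0.22 and -0.83, and neither was called. The call between daily and weekly mice was near the threshold. It held in 2 of 12 fits that left out 1 library (adjusted p = 0.0267 to 0.0958), was lost with replicate numbers as blocks of daily and weekly females (adjusted p = 0.0586), and the difference stayed between 0.95 and 1.23.

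Zbtb16 encodes PLZF, a zinc finger repressor that is among the most glucocorticoid-responsive transcription factors in many tissues. It lies on the minus strand at chr9:48654311-48835945. Male daily libraries had 147, 123 and 143 CPM, against 74.0, 53.2 and 76.4 CPM in weekly and 61.6, 92.2 and 88.7 CPM in vehicle males. The 3 male daily libraries were thus above all other libraries of the study. Female daily libraries had 79.1, 82.6 and 68.8 CPM, weekly ones 48.2, 55.7 and 59.4 CPM, and vehicle ones 75.4, 65.6 and 40.0 CPM. In females the daily libraries cleared the weekly ones but overlapped vehicle. The call between daily and weekly mice held in every alternative tried and in all 12 fits without 1 library (adjusted p = 0.0109 to 0.0249 in the latter).

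Of 13596 tested genes, 3.99% had every daily library above every weekly library in both sexes, and of the 9 listed genes Fkbp5 and Zbtb16 did. By sex, Fkbp5, Zbtb16 and Klf15 were separated in this way in males, where 11.9% of tested genes were, and Fkbp5 and Zbtb16 in females, where 9.83% were. With the adipocyte score as a covariate the difference was 0.76 for Zbtb16 (adjusted p = 0.0114) and 1.05 for Fkbp5 (adjusted p = 0.0502).

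**Figure D2:**
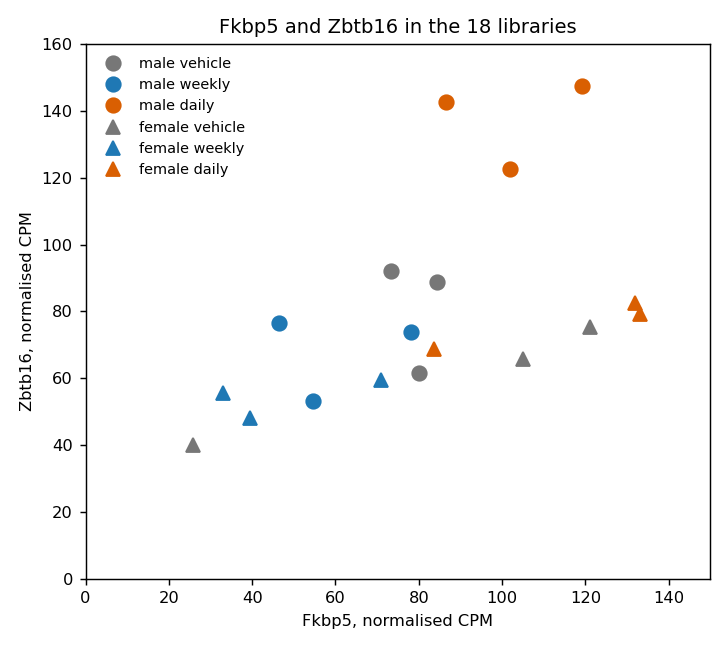
Normalised CPM of Fkbp5 (x axis) and Zbtb16 (y axis) in the 18 libraries, with circles for males, triangles for females and colour for treatment. Male daily libraries stand at the top with 123 to 147 CPM of Zbtb16, weekly libraries lie at or below 78.2 CPM of Fkbp5, and female vehicle replicate 3 is lowest for both genes.

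Against vehicle, daily prednisone called 1 of the 9 genes, Zbtb16. It was higher by 0.56 ± 0.15 on the log2 scale over both sexes (SE, edgeR, adjusted p = 0.0190), in a comparison where 15% of tested genes, 2033 in all, were called. In males alone it was higher by 0.77 ± 0.21 (adjusted p = 0.0390), beside 6.46% of tested genes. No listed gene was called in females by edgeR, DESeq2 or limma-voom, none had an unadjusted p under 0.05, and 0.382% of tested genes were called. The male and female responses of Zbtb16 were not shown to differ. No listed gene passed the test of the sex difference of the daily response with edgeR, DESeq2 or limma-voom. Over all tested genes edgeR called 0% and limma-voom none, while DESeq2 called 2. The call over both sexes held in all 12 fits without 1 library and was lost with length and GC trends removed (difference 0.47, adjusted p = 0.0742) and with the adipocyte score as a covariate (difference 0.57, adjusted p = 0.230), a fit in which edgeR called none of the 13596 genes and 2214 had an unadjusted p under 0.05. The call in males was lost in each of the 6 fits without 1 library (adjusted p = 0.0574 to 0.166).

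The other 8 genes did not pass the test between daily and vehicle mice. Of the 9 differences 7 were above 0, with a median of 0.16 against 0.023 for all tested genes. Tsc22d3 stood at -0.13 ± 0.15 (95% interval -0.43 to 0.18) and Sgk1 at 0.16 ± 0.16 (-0.18 to 0.51), so that a doubling of either was outside its interval. Klf15 was at 0.13 ± 0.18 (-0.25 to 0.50) and Cebpd at 0.046 ± 0.30 (-0.59 to 0.68). The interval was widest for Ddit4, at 0.28 ± 0.55 (-0.89 to 1.45), and it included a doubling. Cdkn1a was at 0.23 ± 0.34 (-0.49 to 0.95) and Cebpb at -0.023 ± 0.24 (-0.54 to 0.49).

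Weekly prednisone called none of the 9 genes against vehicle. The same held for all 13596 genes tested by edgeR (0%), of which 1492 had an unadjusted p under 0.05, with no listed gene among them. DESeq2 called 152 genes higher and 31 lower, limma-voom called none of either (1303 with an unadjusted p under 0.05), and neither called a listed gene. The median difference of the 9 genes was -0.19 (log2), with 2 of 9 above 0, against 0.019 for all tested genes. In neither sex did any listed gene have all weekly libraries on 1 side of all vehicle libraries. The share of tested genes with such a separation is not given here, so this absence is a description only. Besides Fkbp5, Zbtb16 stood at -0.20 ± 0.15 (95% interval -0.51 to 0.11), Tsc22d3 at -0.29 ± 0.15 (-0.59 to 0.022) and Cdkn1a at -0.28 ± 0.34 (-0.998 to 0.45). Klf15 was at -0.19 ± 0.18, Sgk1 at -0.067 ± 0.16, Cebpd at -0.034 ± 0.30 and Ddit4 at 0.013 ± 0.55. Cebpb had the largest positive estimate of the 9, at 0.46 ± 0.24 (-0.054 to 0.97, adjusted p = 0.50). By sex, edgeR called no gene in males or in females (0% in each), with 777 and 1083 genes at an unadjusted p under 0.05, among the listed genes Cebpb in females. DESeq2 called 1 gene higher in males, and 140 higher and 12 lower in females, none of them listed, and limma-voom called none in either sex. The vehicle mice were shared by both prednisone comparisons, so these estimates are not independent of those above.

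**Figure D3:**
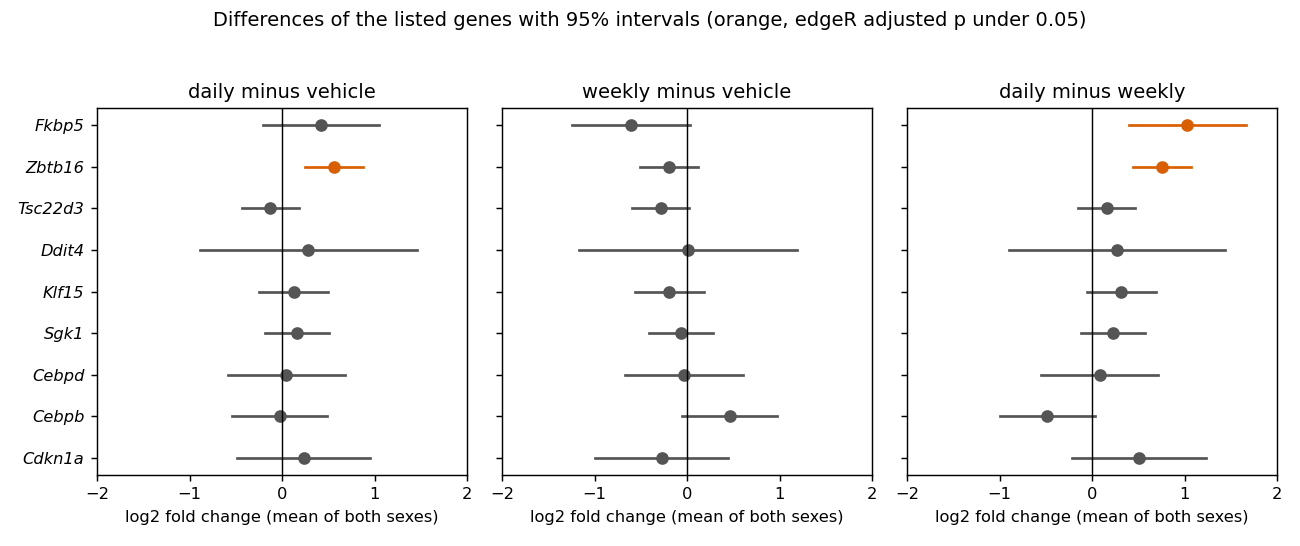
Log2 fold change of each listed gene, as the mean of both sexes, for daily minus vehicle, weekly minus vehicle and daily minus weekly, with 95% intervals from edgeR as lines. Orange marks an adjusted p under 0.05: Zbtb16 in daily against vehicle (0.56), and Zbtb16 (0.76) and Fkbp5 (1.03) in daily against weekly mice.

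Among the transcription factors, Klf15 drives amino acid breakdown in muscle and is a direct GR target there. It lies at chr6:90462576-90475238 on the plus strand. Male vehicle libraries had 32.3, 35.4 and 37.1 CPM, weekly ones 27.6, 33.6 and 23.6 CPM, and daily ones 46.3, 37.2 and 37.6 CPM. The male daily libraries were above vehicle and weekly alike, by a margin over vehicle of less than 1 CPM in 2 of them. Together with Fkbp5 and Zbtb16, Klf15 was 1 of 3 listed genes with all male daily above all male vehicle libraries, as 16.4% of tested genes had. Female libraries overlapped throughout, at 47.8, 64.2 and 29.0 CPM for vehicle, 49.3, 31.4 and 52.9 CPM for weekly and 59.2, 39.0 and 46.8 CPM for daily mice. Between daily and weekly mice Klf15 differed by 0.32 ± 0.18 (95% interval -0.057 to 0.69, adjusted p = 0.295).

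Cebpb and Cebpd encode C/EBPβ and C/EBPδ, leucine zipper factors that act in adipocyte differentiation, in acute inflammation and in the muscle response to glucocorticoids. Cebpb, at chr2:167688915-167690418 on the plus strand, overlaps Tmem189 on the opposite strand, and its counts may hold reads of both. Its male libraries had 45.3, 36.0 and 38.3 CPM on vehicle, 53.3, 43.1 and 19.7 CPM on weekly and 28.8, 23.1 and 28.9 CPM on daily prednisone. Female libraries had 24.1, 29.2 and 30.8 CPM on vehicle, 26.0, 56.2 and 81.9 CPM on weekly and 41.1, 38.6 and 40.9 CPM on daily prednisone. The vehicle males (36.0 to 45.3 CPM) all stood above the vehicle females (24.1 to 30.8 CPM). That difference, female minus male, was -0.51 ± 0.34 (log2, edgeR, adjusted p = 0.637) and did not pass. The share of tested genes separated by sex in this way is not given here. Against vehicle of the same sex, daily libraries all lay below it in males and all above it in females. In males Cebpb was the one listed gene with this downward separation, seen in 17.1% of tested genes, and in females the one listed gene with the upward separation, seen in 12.9%. Daily and vehicle males differed by -0.57 ± 0.34 (adjusted p = 0.343), and the same contrast in females gave 0.52 ± 0.34 (adjusted p = 0.457), so neither passed. In a fit of the male vehicle and daily libraries alone the male difference, -0.57, was called (adjusted p = 0.0292). The share of tested genes called in that fit is not given here. The female minus male difference of the daily response was 1.09 ± 0.48 (log2, unadjusted p = 0.0399 and adjusted p = 0.889 by edgeR), which did not pass.

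In weekly females Cebpb was higher than in vehicle females by 0.96 ± 0.34 (unadjusted p = 0.0130, adjusted p = 0.434), a difference that did not pass either. It was 1.30 without female weekly replicate 1 and 0.55 without replicate 3. Replicate 1 was the lowest weekly female for Cebpb and replicate 3 the highest. In replicates 1, 2 and 3 the summed adipocyte markers were 4065, 959 and 6872 CPM, and the summed immediate early genes were 458, 6599 and 4602 CPM. The part of these cells or genes in the Cebpb level was not tested. Between daily and weekly mice Cebpb stood at -0.48 ± 0.24 over both sexes (95% interval -0.99 to 0.029, adjusted p = 0.238). In fits without 1 library it ranged from -0.65 without female weekly replicate 1 (adjusted p = 0.0496, the one fit of 12 that passed) to -0.27 without female weekly replicate 3 (adjusted p = 0.507).

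Cebpd, at chr16:15887286-15888466 on the plus strand, had 93.6, 59.2 and 79.9 CPM in vehicle males, 115, 63.4 and 47.0 CPM in weekly males and 97.7, 94.6 and 68.0 CPM in daily males. In females the levels were 84.3, 108 and 89.7 CPM on vehicle, 30.2, 122 and 126 CPM on weekly and 66.8, 109 and 92.8 CPM on daily prednisone. The groups overlapped in both sexes, and the first weekly female was the lowest of all 18 libraries. Cebpd differed between daily and weekly mice by 0.080 ± 0.30 (-0.55 to 0.71).

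Tsc22d3, on chromosome X (140539528-140600659, minus strand), encodes GILZ, a leucine zipper protein that carries much of the anti-inflammatory action of glucocorticoids. Vehicle males had 493, 417 and 424 CPM, weekly males 378, 417 and 272 CPM, and daily males 461, 332 and 352 CPM. Vehicle females had 272, 368 and 242 CPM, weekly females 203, 283 and 255 CPM, and daily females 234, 321 and 307 CPM. Within each sex the treatments overlapped. All vehicle males stood above all vehicle females, as they did for Cebpb, and the share of tested genes with this order is not given here. The sex difference of Tsc22d3 had an unadjusted p of 0.0104 by edgeR (log2 difference of -0.60 ± 0.20, female minus male, adjusted p = 0.273). That comparison called none of the listed genes and 0.765% of tested genes.

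Sgk1 encodes a kinase of ion transport and cell survival that is related to Akt, and spans chr10:21882184-21999903 on the plus strand. It had 330, 308 and 435 CPM in vehicle, 389, 372 and 288 CPM in weekly and 400, 449 and 371 CPM in daily males. Females had 258, 317 and 274 CPM on vehicle, 185, 340 and 267 CPM on weekly and 229, 410 and 294 CPM on daily prednisone. The treatment groups of Sgk1 overlapped in both sexes. The palindrome printed above stood upstream of 1 of its 6 RefSeq starts, the counts are for the whole gene, and the use of that start was not tested. The daily minus weekly difference was 0.23 ± 0.16 (-0.12 to 0.57, adjusted p = 0.426).

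Ddit4 encodes REDD1, which inhibits mTORC1 and so protein synthesis, and lies at chr10:59949675-59951770 on the minus strand. Males had 144, 49.6 and 82.4 CPM on vehicle, 170, 140 and 26.8 CPM on weekly and 125, 50.6 and 26.0 CPM on daily prednisone. Females had 26.3, 70.7 and 21.2 CPM on vehicle, 18.8, 41.8 and 37.9 CPM on weekly and 23.6, 140 and 74.5 CPM on daily prednisone. Libraries of the same group differed by more than 3-fold in 4 of the 6 groups, and a difference of less than a doubling was not detectable at this spread. Its daily minus weekly difference was 0.27 ± 0.55 (-0.90 to 1.44).

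Cdkn1a encodes p21, an inhibitor of cyclin-dependent kinases, and lies at chr17:29090979-29100722 on the plus strand. Males had 77.6, 87.9 and 142 CPM on vehicle, 172, 108 and 51.3 CPM on weekly and 191, 167 and 101 CPM on daily prednisone. Females had 224, 176 and 82.3 CPM on vehicle, 52.3, 129 and 125 CPM on weekly and 92.5, 207 and 146 CPM on daily prednisone. The groups overlapped in both sexes. Daily and weekly mice differed by 0.51 ± 0.34 (-0.22 to 1.23, adjusted p = 0.394), and an annotated gene on the opposite strand overlaps the locus.

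**Figure D4:**
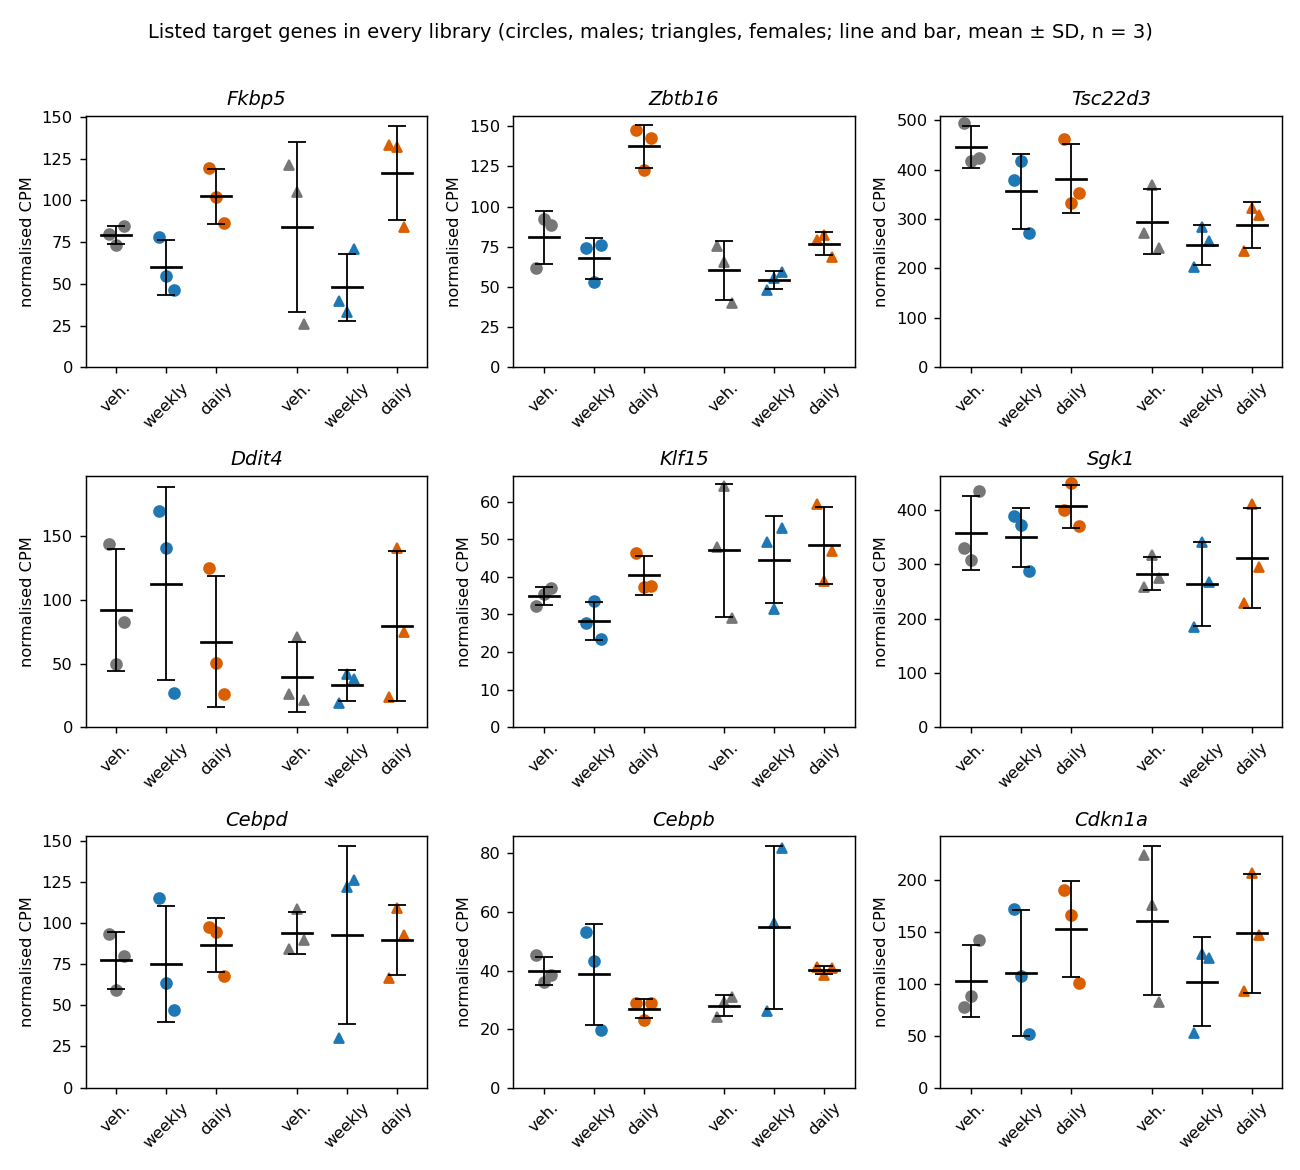
Normalised CPM of the 9 listed genes in each library, males as circles and females as triangles, with mean and SD of 3 libraries as lines and bars, and each y axis starting at 0. Male daily libraries stand apart for Zbtb16, at a mean of 137.5 against 80.9 CPM on vehicle, while the groups of Cebpd, Sgk1, Ddit4 and Cdkn1a overlap.

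The sex difference of the weekly response was not called for any listed gene, or for any tested gene (0%), by edgeR. None of the listed genes had an unadjusted p under 0.05 in that contrast, and 357 of all tested genes had. For the daily response the counts were 1 listed gene, Cebpb, and 638 of all tested genes. The samples of each group came from separate mice, and no pair of libraries within a group agreed within sampling noise.

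The listed genes did not move as a block from library to library. After the group means were removed, the Pearson correlation of log2 levels over the 18 libraries was highest for Tsc22d3 and Ddit4 (r = 0.91) and for Cebpd and Cebpb (r = 0.81). Fkbp5 went with Klf15 (r = 0.72) and Zbtb16 (r = 0.68), while Zbtb16 and Tsc22d3 were at r = 0.055 and Klf15 and Sgk1 at -0.24. These values are a description of genes measured in the same libraries. Over all 18 libraries with group means kept, the genes most like Fkbp5 were Mstn and Lemd3 (both r = 0.85), and those most like Zbtb16 were Dync1h1 and Uhrf2 (both r = 0.87). Tsc22d3 was most like Slc2a3 and Spcs3 (both r = 0.88), Sgk1 like Itgb1 (0.92) and Serinc3 (0.91), and Ddit4 like Slc25a25 (0.88) and Ppp1r13l (0.83). The nearest genes were Whamm (0.86) and Snd1 (0.83) for Klf15, and Slc3a2 (0.88) and Bcl10 (0.87) for Cebpd. For Cebpb they were Tapbpl (0.81) and Rcor2 (0.74), and for Cdkn1a they were Mt1 (0.85) and Sprtn (0.82).

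**Figure D5:**
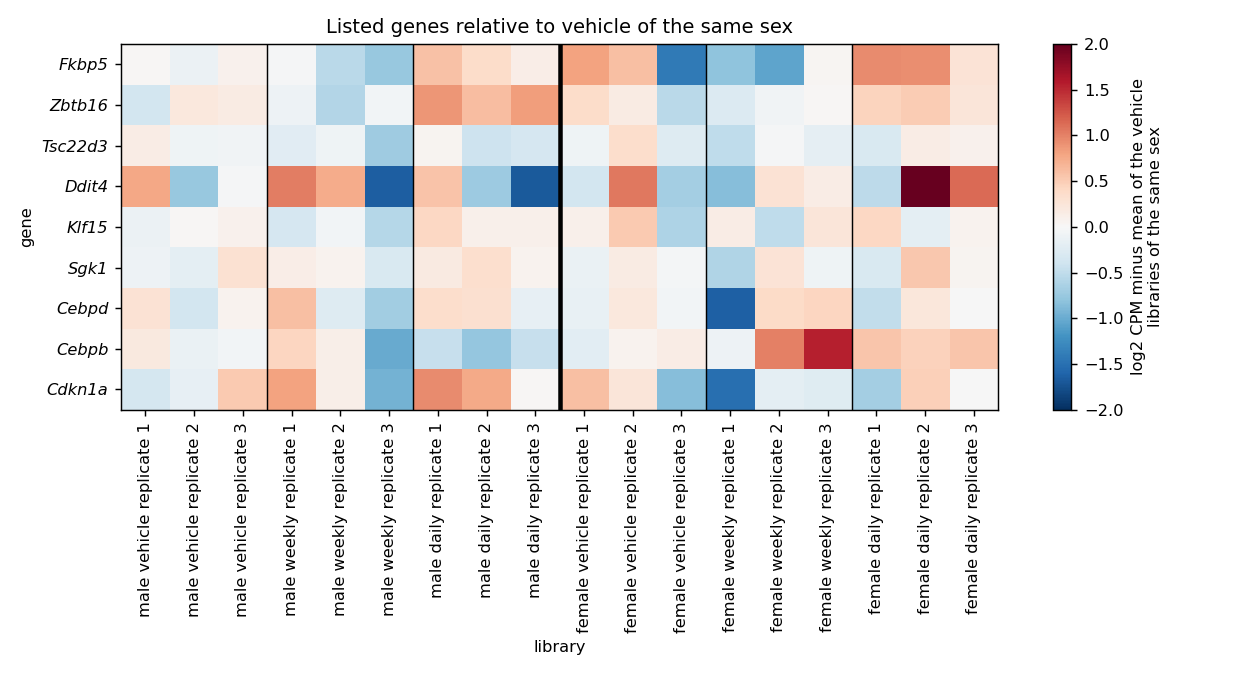
Log2 CPM of each listed gene (rows) in each library (columns) minus the mean of the vehicle libraries of the same sex, blue for lower and red for higher. Zbtb16 is above 0 in all 6 daily libraries, Cebpb is below 0 in the male and above 0 in the female daily libraries, and female weekly replicate 1 and male weekly replicate 3 are blue for most genes.

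The receptor itself and its partners were set beside the targets. Nr3c1, which encodes GR, differed by 0.20 ± 0.089 between daily and vehicle mice (adjusted p = 0.137), by 0.0063 ± 0.089 between weekly and vehicle mice and by 0.20 ± 0.089 between daily and weekly mice (adjusted p = 0.184). Of 8 genes for the receptors, the steroid-activating enzyme Hsd11b1, the chaperones and the coactivator Ncoa2, 1 was called between daily and vehicle mice, no larger a share than the 15% of all tested genes. Ncoa2, whose protein binds ligand-bound nuclear receptors, was higher by 0.46 ± 0.10 (adjusted p = 0.00773). None of the 8 was called between weekly and vehicle mice, where none had an unadjusted p under 0.05, or between daily and weekly mice, where 2 had. DESeq2 and limma-voom also called none of the 8 in either of these comparisons. Between daily and vehicle mice DESeq2 called 2 of the 8, both higher, beside 1143 higher and 1211 lower among all genes. There limma-voom called 1 of the 8.

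A further 20 genes with reported glucocorticoid responses were read in the same way. Between daily and vehicle mice 4 of 20 were called higher and none lower, near the 15% of all tested genes called, with a median of 0.20 (log2) against 0.023 for all tested genes. These were Klf9 (0.61 ± 0.13, adjusted p = 0.00565), a GR-induced transcription factor, Mstn (0.56 ± 0.18, adjusted p = 0.0431), which encodes the growth inhibitor myostatin, and Angptl4 (1.75 ± 0.48) and Lcn2 (2.002 ± 0.26), both secreted factors that adipocytes also make. In the same comparison 8 of 10 adipocyte markers were called higher, and the part of adipocytes in the last 2 genes was not tested. No gene of the 20 was called between weekly and vehicle mice by edgeR, where 5 had an unadjusted p under 0.05, or by limma-voom, and 1 was called by DESeq2.

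Between daily and weekly mice 2 of the 20 were called, near the 8.17% of all tested genes, and both were higher: Mstn by 0.85 ± 0.18 (adjusted p = 0.0121) and the ubiquitin ligase gene Cblb by 0.55 ± 0.12 (adjusted p = 0.0156). Mstn had 52.4, 46.1 and 57.5 CPM in daily and 37.6, 39.9 and 25.0 CPM in weekly males, and 75.3, 48.8 and 51.9 CPM in daily and 25.7, 20.2 and 36.0 CPM in weekly females. As with Fkbp5 and Zbtb16, its daily libraries all lay above the weekly ones in both sexes, as 3.99% of tested genes had. The same held for Cblb. Its lowest daily and highest weekly libraries had 25.7 and 19.6 CPM in males and 23.0 and 20.5 CPM in females. It also held narrowly for Lpin1 (402 and 378 CPM in males, 301.3 and 299.4 CPM in females), which was not called (edgeR, adjusted p = 0.0927). The median of the 20 genes was 0.31, with 18 of 20 above 0, against -0.018 for all tested genes. By edgeR 8 of the 20 had an unadjusted p under 0.05, beside 24.1% of tested genes. DESeq2 called 4 of the 20, all higher, beside 746 higher and 688 lower among all genes. With limma-voom 2 of the 20 were called, both higher, beside 585 higher and 503 lower.

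Per1, a clock gene with its own GR sites, differed by 0.21 ± 0.25 between daily and vehicle mice, by 0.16 ± 0.25 between weekly and vehicle mice and by 0.053 ± 0.25 between daily and weekly mice. The atrophy ubiquitin ligase genes Trim63 and Fbxo32 were at -0.29 ± 0.37 and -0.40 ± 0.31 in daily against vehicle mice, and at -1.16 ± 0.38 (adjusted p = 0.271) and -0.93 ± 0.31 (adjusted p = 0.279) in weekly against vehicle mice. Neither passed the test in these comparisons or between daily and weekly mice, where the differences were 0.87 ± 0.37 (adjusted p = 0.165) and 0.53 ± 0.31 (adjusted p = 0.317). By sex, the daily against vehicle differences were 0.30 ± 0.52 for Trim63 and 0.029 ± 0.43 for Fbxo32 in males. In females they were -0.87 ± 0.53 and -0.82 ± 0.43, and none of these passed. By qPCR, a different measure, the paper reported both genes higher in daily than in vehicle mice and unchanged in weekly mice. The library that was lowest for Fkbp5 and Zbtb16, female vehicle replicate 3, was also far below the other vehicle females for both ligase genes. It had 188 against 1019 and 1422 CPM for Trim63, and 293 against 856 and 1313 CPM for Fbxo32. Such a low library lowers the vehicle mean and so raises the female daily against vehicle difference.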

How the data were processed

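Polyadenylated RNA of quadriceps myofibers, digested with collagenase and retained by a strainer, was sequenced from 18 mice. The authors aligned reads to mm10 and deposited raw counts per gene. The submitters' processing notes name TopHat2 2.1.0, Bowtie2 2.2.6 and HTSeq. The strand setting and annotation release are not given in the sources used here, so overlapping genes are uncertain.

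Counts were fitted in R 4.3.3 with edgeR 4.0.16 as 6 group means over 18 libraries (TMM scaling, filterByExpr with a minimum count of 10, robust quasi-likelihood test). Adjustment followed Benjamini and Hochberg over 13596 genes, and genes with an adjusted p under 0.05 were called. Standard errors came from the fold change and the F statistic. Levels per kilobase used GENCODE M21 exon unions within the table's gene spans. Likeness used log2(CPM + 1). The procedure was tested on simulated data. Alternatives used DESeq2 1.42.0, limma 3.58.1 (voom), other filters and scaling, the compared groups alone, a replicate block, an adipocyte covariate and removal of length and GC trends, and each library was left out in turn.

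The genes, lists and rules were chosen with earlier results of these data known. All listed genes are named with their levels, and by sex a fold change is given where the unadjusted p was under 0.05 there or for the sex difference. Of the other lists, the genes called over both sexes are named, with Nr3c1, Per1, Trim63 and Fbxo32, and Lpin1 for its separation. For Trim63 and Fbxo32 the daily against vehicle differences are also given by sex.

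Replicate numbers come from the sample titles. Same-numbered daily and weekly females deviated together from their group means (correlations of 0.50, 0.48 and 0.44), and no other pair of groups did so for all 3 numbers.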

Additional observations from a re-analysis of the deposited data

Results flagged for a closer look

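For Cebpb all 3 daily libraries were below the 3 vehicle libraries in males and above them in females, separations that 17.1% and 12.9% of all tested genes showed. Neither difference passed the test in its sex (adjusted p = 0.343 and 0.457). The 3 vehicle males also stood above the 3 vehicle females. The female minus male difference of the response was 1.09 on the log2 scale (edgeR, unadjusted p = 0.0399), and it did not pass after adjustment over all genes (adjusted p = 0.889). Without 1 library it ranged from 0.97 to 1.15. No sample stood far from its group in the 27 sets of 6 libraries, 1 for each listed gene and treatment with both sexes together, and groups of 3 are too small for that check.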

How the results depend on the processing

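The count of listed genes called between daily and vehicle mice (1, Zbtb16) was 0 with the adipocyte score as a covariate and with length and GC trends removed, and 1 in every fit without 1 library. In males it was 0 with the adipocyte score, without length and GC trends and with the replicate block, 2 in a fit of the compared groups alone (Zbtb16 and Cebpb), and 0 to 0 across fits without 1 library. Between daily and weekly mice the count of 2 became 1, Zbtb16, with limma-voom, no filter, the replicate block, the block in daily and weekly females only, the adipocyte score, and length and GC trends removed, and it was 1 to 2 without 1 library. Fkbp5 then had adjusted p values of 0.0614, 0.107, 0.0992, 0.0586, 0.0502 and 0.116. The 7 remaining counts were 0 in all fits. The replicate block changed no other call. The removal of trends and the block in females only were chosen after seeing the data. In each case the cause was not tested. The shares of tested genes called in these alternative fits are not given here, except where stated above.

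Differences that were not called changed sign in places. Klf15 between daily and vehicle mice was -0.22 with the adipocyte score. Cebpb in that comparison was 0.0085 without a filter and 0.18 without length and GC trends. Between weekly and vehicle mice Ddit4 was -0.033 with limma-voom, -0.067 with the replicate block, -0.047 with the adipocyte score and -0.053 without length and GC trends, and with that score Sgk1 and Cebpd were each at 0.13. Without 1 library, daily against vehicle differences ranged from -0.12 to 0.66 for Ddit4, from -0.038 to 0.14 for Cebpd and from -0.062 to 0.037 for Cebpb. The weekly against vehicle ranges were -0.20 to 0.37 for Ddit4, -0.26 to 0.17 for Cebpd and -0.19 to 0.031 for Sgk1, and those of daily against weekly were -0.13 to 0.51 for Ddit4 and -0.13 to 0.32 for Cebpd. With 3 libraries a group, depth was less of a limit than the spread between mice for all listed genes.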
